A study of Mus musculus with 5 samples.

Results

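The insulin-like growth factor (IGF) axis was followed through 10 genes in dissociated mouse synovial sarcoma (SyS), namely the ligand genes Igf2 and Igf1, the imprinted non-coding RNA H19, the receptor genes Igf1r, Igf2r and Insr, and the binding protein genes Igfbp2, Igfbp4, Igfbp5 and Igfbpl1. They are 10 of 32286 features in the count matrices, matched by symbol, and they were selected on earlier results of these same data, so their levels are given as a description and carry no test. The tumours arose in hSS2 mice, which carry the human SS18::SSX2 fusion at the Rosa26 locus and switch it on after TATCre protein is injected into a limb. By the labels all 5 tumours carried the fusion, and no normal tissue was sequenced. Age at harvest is not in the labels. By histology, 2 tumours were biphasic (BP), 1 was monophasic (MP), 1 was mixed monophasic and biphasic (MP+BP), and 1 was mixed poorly differentiated and monophasic (PD+MP), so PD+MP and its histology cannot be told apart from that single tumour.

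IGF1 and IGF2 are secreted peptides that signal through the tyrosine kinase receptor encoded by Igf1r and, for IGF2, also through the insulin receptor encoded by Insr. The receptor encoded by Igf2r binds IGF2 without kinase signalling and carries it to lysosomes, while binding proteins hold the ligands outside cells and set how much is free. Igf2 and H19 lie side by side and are imprinted in opposite ways, Igf2 being expressed from the paternal and H19 from the maternal allele in most fetal tissues, and both fall sharply after birth in mice.

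On genome build GRCm38, Igf2 (ENSMUSG00000048583) is at chr7:142650766-142666816 on the minus strand and H19 (ENSMUSG00000000031) at chr7:142575529-142578143, also on the minus strand, with 72.6 kb between them. In the same annotation (GENCODE M21) Igf1 is at chr10:87858265-87937042, Igf1r at chr7:67952827-68233668, Igf2r at chr17:12682406-12769664 and Insr at chr8:3122061-3279617. Igfbp2 (chr1:72824503-72852474) and Igfbp5 (chr1:72857932-72874884) are neighbours, while Igfbp4 is at chr11:99041244-99054392 and Igfbpl1 at chr4:45809468-45826923. H19 holds the hairpin of miR-675, and Igf2 holds that of miR-483. These hairpins are no features of the matrices, and 3′ UMI counts do not measure mature miRNAs. Their mature sequences, from the RefSeq table for GRCm38.p6, are shown because each lies inside one of the pair of genes that the results turn on, with the seed (bases 2 to 8) in capitals.
mmu-miR-675-5p: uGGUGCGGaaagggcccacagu
mmu-miR-675-3p: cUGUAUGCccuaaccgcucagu
mmu-miR-483-5p: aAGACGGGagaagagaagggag
mmu-miR-483-3p: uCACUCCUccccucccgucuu
The 4 seeds differ from one another.

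Igf2 can start at several positions, and reads from the 3′ end do not show which start was used. RefSeq gives 4 start windows for Igf2, each from 250 bases before to 50 bases after a start. The pair with the most and the fewest CpG dinucleotides is shown on the minus strand, 5′ to 3′, with every GC box (GGGCGG or its complement CCGCCC, overlaps counted) in capitals.
Igf2 window chr7:142658755-142659054: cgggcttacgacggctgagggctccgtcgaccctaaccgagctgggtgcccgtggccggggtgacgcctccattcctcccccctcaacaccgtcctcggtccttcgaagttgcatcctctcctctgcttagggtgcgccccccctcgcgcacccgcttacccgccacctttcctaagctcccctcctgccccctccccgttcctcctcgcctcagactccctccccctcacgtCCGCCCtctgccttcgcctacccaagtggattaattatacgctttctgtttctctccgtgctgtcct
Igf2 window chr7:142666767-142667066: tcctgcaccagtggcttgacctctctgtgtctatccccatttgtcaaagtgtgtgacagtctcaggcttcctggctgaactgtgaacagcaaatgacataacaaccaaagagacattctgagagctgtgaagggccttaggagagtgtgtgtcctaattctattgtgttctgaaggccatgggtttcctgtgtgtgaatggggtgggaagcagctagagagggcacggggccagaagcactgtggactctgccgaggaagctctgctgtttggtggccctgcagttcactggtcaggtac
The first window holds 24 CpG and 1 GC box, and the second, the most upstream, holds 2 CpG and no GC box. Over all 32851 windows of the table, 35.7% hold a GC box and the median is 7 CpG. Windows were found for 7 of the 10 genes, and H19, Insr and Igfbpl1 had none.

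Between 8931 and 11565 cells were called per library, with 89996321 to 118649103 unique molecular identifiers (UMIs) per library. After filtering, 6328 to 9486 cells per tumour fell into 30 clusters, which were named "X-like" from marker genes other than the 10 studied here. The 13 SyS-like clusters each held 5 to 10 of 13 SyS markers, such as Sox2 and Sox11, and together held 2575 to 5952 cells per tumour. In PD+MP, 4 clusters (8, 10, 11 and 16) that held almost no cell of another tumour made up most SyS-like cells, so tumour and cell state cannot be told apart there. Unnamed clusters held 7.31% of cells in PD+MP and 13.6% to 31.3% in the others. Of the 7 unnamed clusters all but cluster 29 held 7 or 8 SyS markers, more than of any other class. They were set aside for leading genes of another class or a low UMI count, so SyS-like levels leave such cells out. Of 51437 distinct barcodes, 231 occurred in more than 1 library. PD+MP also differed in sex-linked RNA, with the SyS-like sum holding 134 CPM (UMIs per 1000000 UMIs) of Uty and 0.354 of Xist, against at most 0.0409 and at least 1486 in the other 4 tumours.

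Igf2 RNA was far more abundant in SyS-like cells of PD+MP than in those of the other tumours. Its level, in CPM over all UMIs of the class, was 35.9 and 37.3 in the BP tumours, 20.4 in MP+BP, 7.78 in MP and 1230 in PD+MP. PD+MP was thus 33.0-fold above the next tumour, against a mean of 25.3 ± 14.0 (SD, n = 4) in the others. The count behind the PD+MP value was 86919 UMIs, with an exact Poisson 95% interval of 1222 to 1238 CPM, which covers counting error only.

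H19 was also highest in PD+MP and was close to absent in SyS-like cells of the other tumours. The order of the others was not shared, since MP was next for H19 and lowest for Igf2. Its SyS-like level was 0.114 and 0.169 CPM in the BP tumours, 0.175 in MP+BP, 0.491 in MP and 222 in PD+MP. The 4 low values rest on 6 to 36 UMIs each, against 15719 in PD+MP. PD+MP was 453-fold above the next tumour, MP. Igf2os, which overlaps Igf2 on the opposite strand, was at 10.7 CPM in PD+MP and at most 0.705 in the other tumours.

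**Figure D1:**
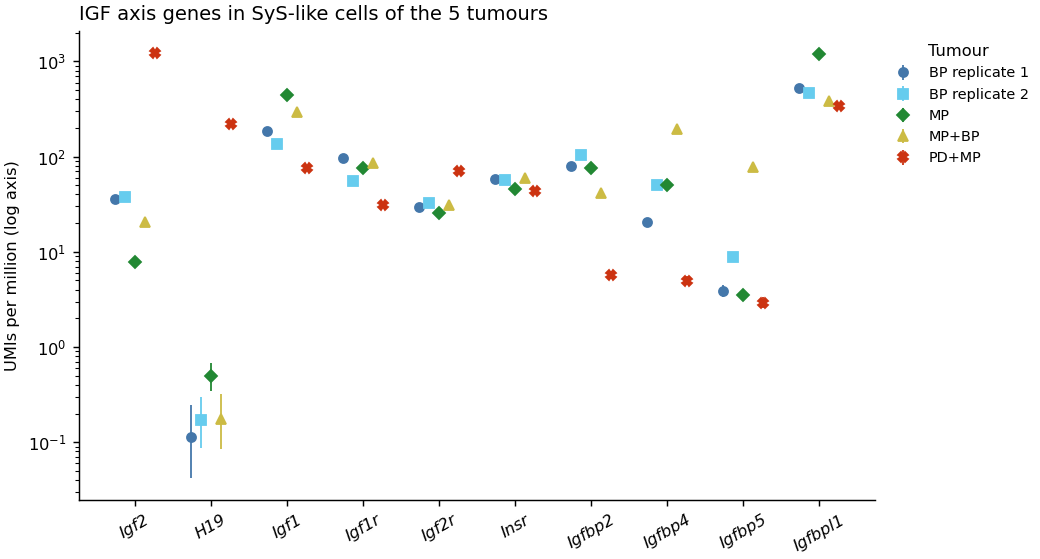
Level of the 10 IGF axis genes in SyS-like cells of each tumour, in CPM on a log axis. Points are tumours and bars are exact Poisson 95% intervals, which cover counting error only. PD+MP is at 1230 for Igf2 and 222 for H19, above every other tumour, and lowest of the 5 for Igf1, Igf1r, Insr and all 4 binding protein genes. Of all genes that reached 1 CPM in a tumour, 30.5% were highest and 33.1% lowest in PD+MP.

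The other ligand gene ran the other way. Igf1 was at 186 and 135 CPM in SyS-like cells of the BP tumours, 295 in MP+BP, 443 in MP and 76.2 in PD+MP, so the tumour with most Igf2 had least Igf1. Among receptor genes, Igf1r was at 97.5 and 55.9 CPM in BP, 85.2 in MP+BP, 75.8 in MP and 31.0 in PD+MP. Igf2r was at 29.7 and 32.3 in BP, 31.2 in MP+BP, 25.5 in MP and 70.7 in PD+MP, where it stood 2.19-fold above the next tumour. Insr spanned only 43.4 to 59.2 CPM, with PD+MP lowest.

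Igf2r was also highest in PD+MP in some other classes. It was at 176 CPM in pericyte-like cells of PD+MP against 116 to 144 in the other tumours, at 127 against 78.6 to 85.2 in endothelial-like cells, and at 32.8 against 1.57 to 11.8 in macrophage-like cells. PD+MP was the highest of the 5 tumours in each of these 4 classes. In pericyte-like cells the PD+MP value rests on 45 UMIs from 38 cells (exact Poisson 95% interval 129 to 236 CPM), which includes the highest of the others. T/NK-like cells ran the other way, with 46.5 CPM in PD+MP (11 UMIs, 23.2 to 83.2) against 55.5 to 89.2 in the other tumours, a gap inside the counting interval.

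Binding protein genes were lowest in PD+MP, as were 33.1% of the genes that reached 1 CPM in a tumour. The gap was wide for Igfbp2 and Igfbp4 only, since the next lowest tumour was 1.19-fold above PD+MP for Igfbp5 and 1.11-fold for Igfbpl1. Igfbp2 was at 80.2 and 103 CPM in SyS-like cells of BP, 41.5 in MP+BP, 75.8 in MP and 5.70 in PD+MP, which is 7.28-fold below the next lowest tumour. Igfbp4 was at 20.4 and 50.6 in BP, 195 in MP+BP, 50.3 in MP and 4.97 in PD+MP, so PD+MP was lowest and MP+BP highest. Igfbp5 was at 3.90 and 8.77 in BP, 78.5 in MP+BP, 3.48 in MP and 2.93 in PD+MP, and its 4 low tumours lay far from MP+BP. Igfbpl1, an IGF binding protein-like gene, was at 525 and 467 in BP, 383 in MP+BP, 1197 in MP and 344 in PD+MP, with MP highest.

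Within MP+BP the binding protein genes were uneven between SyS-like clusters. Cluster 22, which is led by Mgp and Cartpt, and cluster 7, led by Bmp5 and Penk, held Igfbp4 at 1687 and 753 CPM, against 8.54 to 54.5 in the other SyS-like clusters of that tumour. Clusters 7 and 22 hold 916 and 272 of its 4388 SyS-like cells. Igfbp5 differed less between these clusters, at 108 CPM in cluster 4, 84.2 in cluster 22 and 70.8 in cluster 7, against 1.76 to 22.7 in the others. Cluster 4, with 52.8% of the SyS-like cells, held 82.8% of the Igfbp5 UMIs, and 12.0% of its cells had one. Igfbpl1 was lowest in the same clusters 7 and 22, at 38.7 and 45.0 CPM, against 291 to 1983 in the others. In a ranking of genes by the variance of their Pearson residuals over SyS-like cells of MP+BP, Igfbp4 was at rank 4 and Igfbp5 at rank 6 of 16164 genes. The Igfbp4 pattern was not particular to MP+BP. In BP replicate 2 clusters 22 and 7 held Igfbp4 at 1357 and 596 CPM, against at most 16.8 in its other SyS-like clusters, and Igfbp4 was at rank 11 of 16228 genes. Cluster 7 held 252 CPM of Igfbp4 in BP replicate 1 and 263 in MP.

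Across cell classes, the genes divided by where the ligand, the receptors and the binding proteins were most abundant. Igfbpl1 was highest in SyS-like cells, at 583 ± 350 CPM (SD, n = 5), against means of 15.5 to 36.1 in pericyte-, endothelial- and macrophage-like cells, and its tumours did not overlap between SyS-like cells and any of those classes. Igfbp2 was at 61.2 ± 38.0 in SyS-like cells and at means of 2.06 to 8.68 in the same 3 classes, and its SyS-like range of 5.70 to 103 overlapped that of pericyte-like cells, whose highest tumour had 21.1. Neither gene was particular to SyS-like cells. Neutrophil-like cells had Igfbpl1 at 350 ± 236 CPM (SD, n = 3, range 125 to 595) and Igfbp2 at 54.0 ± 41.8 (26.0 to 102). Both ranges overlapped those of SyS-like cells. Igf1 was at 227 ± 145 in SyS-like and 257 ± 71.5 in macrophage-like cells, which overlap, and at 39.0 ± 27.7 and 27.0 ± 13.8 in pericyte- and endothelial-like cells.

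All 3 receptor genes were more abundant in endothelial-like than in SyS-like cells. Insr was at 609 ± 227 CPM (SD, n = 5) in endothelial-like cells, where the lowest tumour, MP, had 326, and at 52.5 ± 7.38 in SyS-like cells. Igf1r was at 214 ± 44.7 in endothelial-like, 123 ± 18.1 in pericyte-like, 109 ± 39.3 in macrophage-like and 69.1 ± 26.1 in SyS-like cells. Igf2r was at 136 ± 25.1 in pericyte-like, 90.3 ± 20.7 in endothelial-like, 37.9 ± 18.5 in SyS-like and 10.9 ± 12.9 in macrophage-like cells. Neither Igf1r nor Igf2r overlapped between SyS-like cells and the pericyte-like or endothelial-like class over the 5 tumours. Igfbp4 was at 421 ± 124 in endothelial-like cells and did not overlap SyS-like cells (64.3 ± 75.7) there. For a gene chosen on these data non-overlap is a description, and the share of all genes that separate in this way was not counted. Differences between these classes were common. Of 13097 genes that were no clustering feature, edgeR called 25.6% higher and 16.3% lower in SyS-like than in pericyte-like cells. The shares were 32.8% and 23.7% against endothelial-like and 39.4% and 27.3% against macrophage-like cells. Whether non-overlap sets the genes named here apart from others was not tested, since these shares count edgeR calls and not non-overlap. The fitted log2 differences of SyS-like from endothelial-like sums are also a description, at -3.76 ± 0.21 (SE) for Insr and 4.87 ± 0.33 for Igfbpl1.

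**Figure D2:**
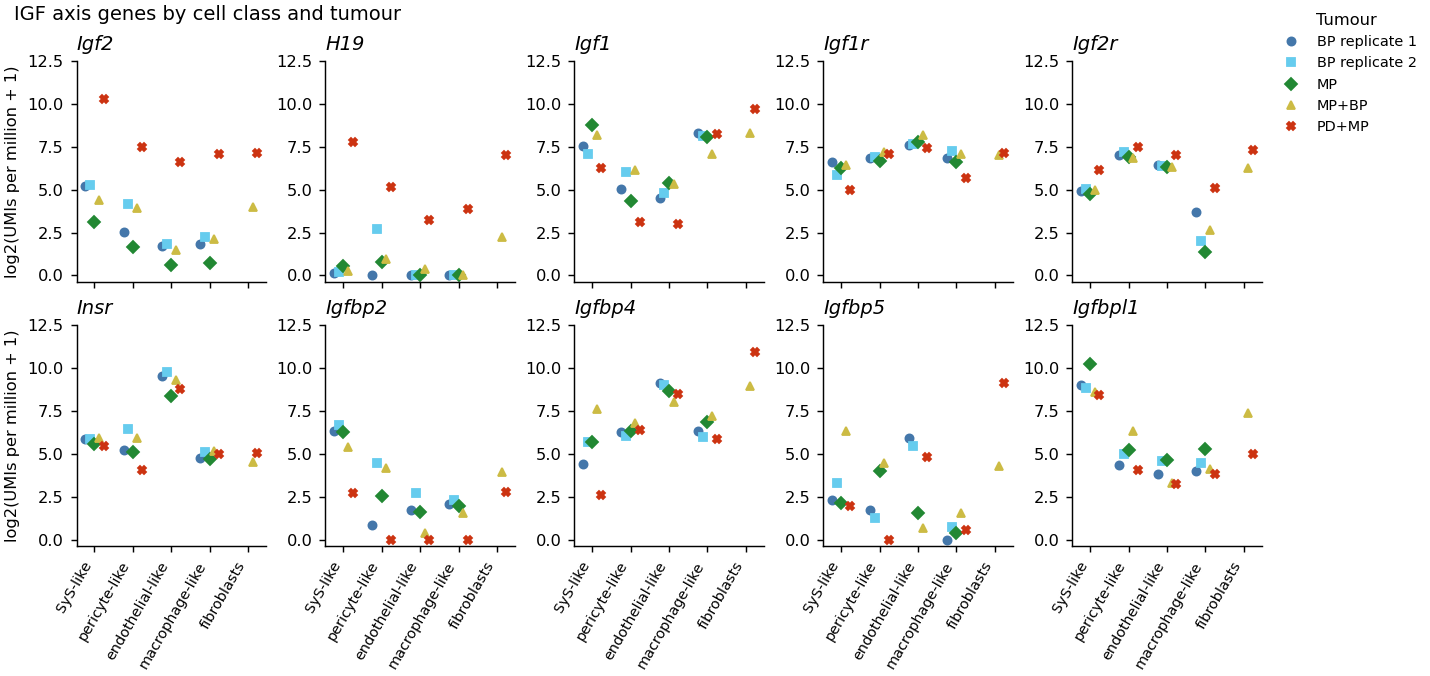
Level of the 10 genes in 5 kinds of cells, on the log2(CPM + 1) scale, with 1 point per tumour that had at least 20 such cells. The column named fibroblasts holds cells with at least 4 of 8 fibroblast genes, which reached 20 cells in MP+BP and PD+MP only, and the MP+BP point rests on 10 SyS-like and 7 fibroblast-like cells of 20. Insr is highest in endothelial-like cells, Igfbpl1 in SyS-like cells and Igfbp4 in fibroblasts of PD+MP, and PD+MP is above the other tumours for Igf2 and H19 in every class shown.

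Igf2 was detected in every named class of PD+MP with at least 20 cells, which bears on how low values are read. Macrophage-like cells of PD+MP had 136 CPM of Igf2 and endothelial-like cells 96.1, against 0.627 to 3.81 and 0.527 to 2.51 in the other tumours. H19 was at 13.5 CPM in macrophage-like cells of PD+MP, with no UMI in the 4 others, which allows up to 0.472 to 1.44 CPM. Macrophage-like cells are used here as a reference class, on the assumption that they lack both genes. Whether free RNA, doublets or the cells' own RNA gave these levels was not tested. Igf2 also differed between the non-SyS classes of PD+MP, from 96.1 CPM in endothelial-like to 258 in T/NK-like cells. With each cell thinned to 3000 UMIs, 83.1% of 5140 SyS-like cells of PD+MP held an Igf2 UMI, against 26.0% of 792 macrophage-like cells. For H19 the shares were 24.2% and 3.66%. The highest macrophage-like cell held 35 Igf2 UMIs after thinning, and the 1% of macrophage-like cells with most Igf2 held 23.9% of its UMIs. Before thinning they were 92.4% and 43.6% for Igf2 and 35.2% and 7.92% for H19, at median depths of 9100 and 5736 UMIs. The thinning left out 812 SyS-like and 117 macrophage-like cells.

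Igf2 varied widely between SyS-like cells of PD+MP. At 3000 UMIs per cell the mean was 4.01 Igf2 UMIs, the median 3, the 90th percentile 9, the 99th percentile 26 and the highest cell 60, while 16.9% had none. The variance was 6.57 times the mean, and the 10% of cells with most Igf2 held 39.1% of its UMIs. H19 was sparser and more concentrated, with a mean of 0.656, a median of 0, a 99th percentile of 8 and a highest cell of 18. Its variance was 3.93 times its mean, and the 10% of cells with most H19 held 71.6% of its UMIs. Ranked by variance of Pearson residuals over 5952 SyS-like cells, Igf2 was at rank 12 and H19 at rank 28 of 14685 genes, with residual variances of 17.7 and 9.99 against a median gene of 1.13.

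**Figure D3:**
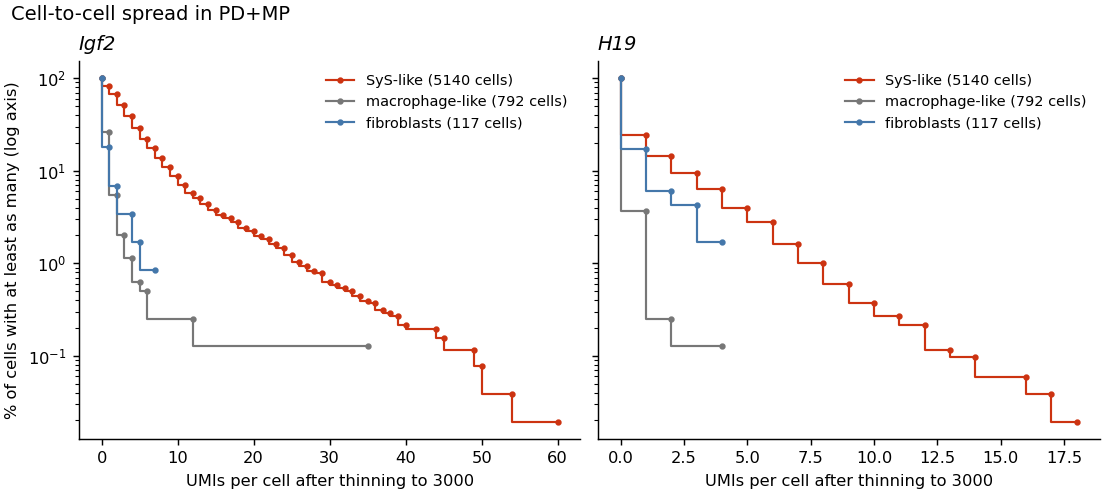
Share of cells of PD+MP with at least a given number of Igf2 or H19 UMIs, after thinning each cell to 3000 UMIs, on a log axis. SyS-like cells reach 60 Igf2 and 18 H19 UMIs. Fibroblasts lie near macrophage-like cells for Igf2, at 17.9% and 26.0% with a UMI, and above them for H19, at 17.1% and 3.66%.

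Part of the Igf2 spread lay between clusters. Cluster 10, whose cells had a median of 2966 UMIs and a median mitochondrial share of 11.2%, had 3210 CPM of Igf2, against 1025 to 1176 CPM in clusters 8, 11 and 16, whose medians were 8250.5 to 15797 UMIs and 4.11% to 4.96%. H19 moved much less, at 266 CPM in cluster 10 and 219 to 229 in the other 3. The unnamed low-count cluster 17 went further, at 4801 CPM of Igf2 and 547 of H19 over 534 cells with 9.85% mitochondrial UMIs. Over SyS-like cells of PD+MP, Igf2 was at 3390 CPM below 3000 UMIs per cell, 2215 from 3000 to 6000, 1146 from 6000 to 12000 and 1102 above, and H19 at 283, 260, 213 and 221. Igf2 was therefore highest in cells of low depth and high mitochondrial share, and the part of RNA quality in this was not tested. Within the deeper clusters 8, 11 and 16 the thinned Igf2 variance was still 2.43 to 3.16 times the mean, against 10.97 times in cluster 10, and that of H19 was 3.53 to 3.99 times and 5.02 times.

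SyS-like clusters 7 and 22 of PD+MP, with 112 and 108 cells, did not share the high level. Igf2 was at 166 and 130 CPM there and H19 at 12.7 and 19.4, close to the 96.1 to 160 and 6.84 to 14.5 of the macrophage-, dendritic- and endothelial-like clusters of the same library. After thinning, 36.6% of 82 and 23.7% of 97 of these cells held an Igf2 UMI. The same cells had more Igf1, at 414 and 478 CPM against 49.0 to 80.8 in clusters 8, 10, 11 and 16, and less Igfbpl1, at 132 and 95.6 CPM against 208 to 390. Cells of cluster 7 in the other tumours had 108 to 119 CPM of Igf2 in BP, 12.53 in MP and 24.2 in MP+BP. Both clusters carry SyS markers (5 and 6 of 13), and the fusion transcript itself was not measured, so their name rests on markers alone.

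At the depth of these cells, Igf2 and H19 were weakly correlated within cells. Over 5140 thinned SyS-like cells of PD+MP, which come from 1 library, Spearman's rho between them was 0.155 and Pearson's r 0.109, given as a description. H19 was detected in 30.8% of the 2013 cells above the median of Igf2 and in 19.99% of the other 3127. Both were detected in 1132 cells, Igf2 alone in 3140, H19 alone in 113 and neither in 755.

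**Figure D4:**
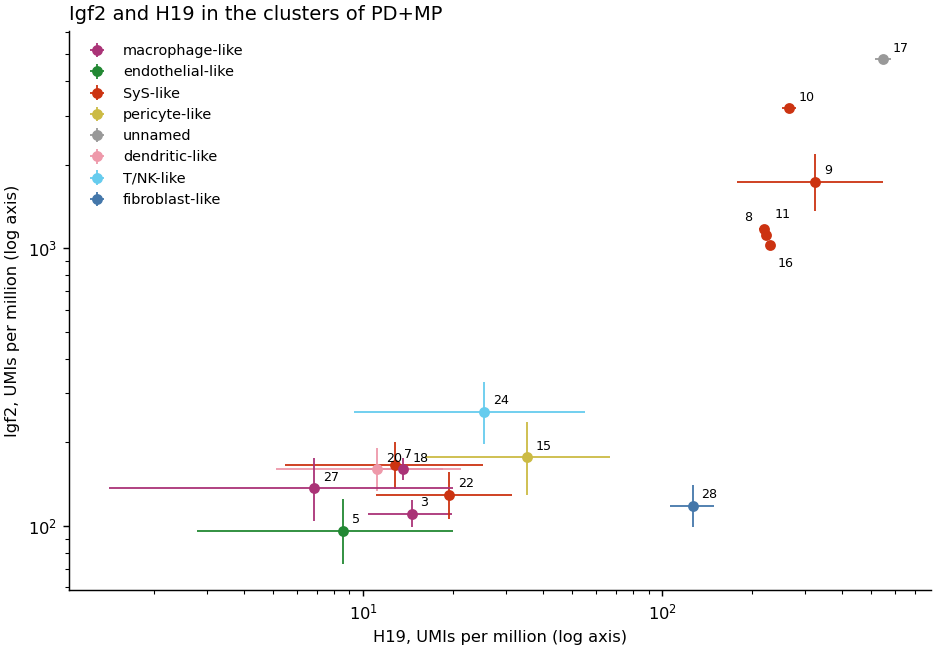
Igf2 against H19 in CPM in each cluster of PD+MP with at least 20 cells and an H19 UMI, both axes log, with exact Poisson 95% intervals for counting error and cluster numbers beside the points. SyS-like clusters 8, 11 and 16 sit together near 219 to 229 for H19, cluster 10 and unnamed cluster 17 lie above them, clusters 7 and 22 lie among immune and endothelial clusters, and fibroblast-like cluster 28 stands apart at 126 for H19 and 118 for Igf2.

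Fibroblasts of PD+MP were taken as the 127 cells in which at least 4 of 8 fibroblast genes (Dcn, Lum, Dpt, Pdgfra, Mfap5, Clec3b, Pi16 and Col14a1) were detected, of which 121 lay in the fibroblast-like cluster, itself positive for all 9 fibroblast markers, and 6 in SyS-like clusters. Igf2 in them was at 142 CPM (exact Poisson 95% interval 122 to 166), close to the 136 of macrophage-like cells. Of 117 thinned cells 17.9% held an Igf2 UMI, so Igf2 did not stand above that reference class. H19 was at 127 CPM (107 to 148), against 13.5 (10.8 to 16.8) in macrophage-like cells. Its thinned share was 17.1% (exact binomial 95% interval 10.8% to 25.2%) in fibroblasts and 3.66% (2.47% to 5.22%) in macrophage-like cells. The ratio of Igf2 to H19 UMIs was 1.13 (0.899 to 1.41) in fibroblasts, against 5.53 (5.44 to 5.62) in SyS-like and 10.05 (8.01 to 12.7) in macrophage-like cells, and this ratio is used only to set classes side by side. No fibroblast held an Igf2os UMI.

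Other axis genes were abundant in these fibroblasts. Igfbp4 was at 1929 CPM, Igf1 at 849, Igfbp5 at 555, Igf2r at 158 and Igf1r at 142 CPM, against 4.97, 76.2, 2.93, 70.7 and 31.0 in SyS-like cells of the same tumour. Insr was at 32.7, Igfbpl1 at 31.0 and Igfbp2 at 5.86 CPM. After thinning, 90.6% of fibroblasts held an Igfbp4 UMI, 70.9% an Igf1 UMI and 33.3% an Igfbp5 UMI. MP+BP had 20 cells that met the rule, but 10 of them lay in SyS-like clusters and held 177877 of their 273169 UMIs, with 7 in the fibroblast-like cluster, 2 pericyte-like and 1 unnamed. Their 502 CPM of Igfbp4, 311 of Igf1 and 18.3 of Igfbp5 are thus no levels of fibroblasts alone. BP replicate 1 had 7 such cells, MP 5 and BP replicate 2 none. The count of genes required mattered for Igf2. With at least 3 of the 8 genes, 46 of 170 cells were SyS-like and Igf2 was at 569 CPM, H19 at 169, Igf1 at 512 and Igfbp4 at 1021, whereas with at least 5 genes 1 of 119 cells was SyS-like and Igf2 was at 120 CPM.

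Genes most like Igf2 and H19 were named by their Pearson correlation on the log2(CPM + 1) scale over 36 sums of a tumour and class. These sums share libraries, so the values are a description. Only genes that reached 10 CPM in at least 1 sum were ranked. For Igf2 the 5 highest of 14893 genes were Hoxc12 (r = 0.861), Kdm5d (0.836), H19 (0.836), Uty (0.834) and Hoxa11os (0.830). For H19 they were Uty (0.912), Kdm5d (0.906), Eif2s3y (0.899), Hoxa11os (0.854) and Igf2 (0.836). Kdm5d, Uty and Eif2s3y are Y-linked, and sex, tumour and histology cannot be told apart in PD+MP. Among SyS-like sums, Uty, Kdm5d, Eif2s3y and Hoxa11os reached 10 CPM in PD+MP only, at 134, 20.6, 37.9 and 54.5 CPM. They were at most 2.03 CPM in the other tumours, and H19 too reached 10 CPM only in PD+MP. The ranks of these genes thus restate that PD+MP differs from the other tumours, and lend no separate support. Hoxc12 reached 130 CPM in the SyS-like class of PD+MP, against 1.34 to 26.4 in the other tumours.

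Among single SyS-like cells of PD+MP, no gene was strongly tied to either. The highest Spearman correlations with Igf2 were Trio (rho = 0.198), mt-Nd1 (0.183), mt-Nd5 (0.179), mt-Nd4 (0.177) and mt-Co3 (0.176), of which 4 are mitochondrial. For H19 they were Igf2 (0.163, from a separate thinning), Serbp1 (0.0787), Lmnb1 (0.0737), Tuba1b (0.0694) and Pclaf (0.0624). In sparse counts such values are weak.

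Within 500 kb on either side of Igf2 and H19, 14 genes reached 1 CPM in SyS-like cells of a tumour, 11 of them other than Igf2, H19 and Igf2os. Of those 11, Ctsd, Gm32786 and Tssc4 were at 1.01- to 1.13-fold the next tumour in PD+MP. Lsp1 (1.84 CPM in PD+MP) and Ascl2 (2.19) reached 1 CPM in PD+MP only, so the filter itself fixed where they were highest. Mrpl23, a mitochondrial ribosomal protein gene in this window, was at 115 CPM in PD+MP and 158 in MP. Kcnq1, also in this window, was lowest in PD+MP, at 0.623 CPM against 3.97 to 7.58 in the other tumours. Of 21 imprinted genes from a fixed list, 3 were highest in PD+MP, Rian at 523 CPM against 276 to 316, Meg3 at 1255 against 675 to 907, and Igf2os. Lowest in PD+MP were 10 of the 21. Among 16775 genes that reached 1 CPM in a tumour, 30.5% were highest and 33.1% lowest in PD+MP. The 10 include 3 genes of the adjoining imprinted domain, picked after their values were seen, with Cdkn1c, a cyclin-dependent kinase inhibitor gene, at 40.3 CPM against 83.9 to 125, Kcnq1ot1 at 140 against 177 to 292 and Phlda2 at 11.8 against 15.8 to 23.6.

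Genes of the pathway that are not among the 10 were tested from a fixed list of 31, of which 24 passed the filter on low counts, by SyS-like against each other class with the tumour as a block (edgeR's quasi-likelihood test, Benjamini-Hochberg adjusted over all 15728 genes tested). The 7 that did not pass were Ins1, Ins2, Insrr, Igfbp1, Pappa, Pappa2 and Igf2bp1. Like the 10 genes, this list was chosen with earlier results of these data known. Its p-values and counts are therefore not those of an independent choice of genes. Against pericyte-like cells 3 of 24 were higher and 9 lower on the SyS-like side, against a background of 25.6% higher and 16.3% lower among the 13097 genes that were no clustering feature. Against endothelial-like cells 6 were higher and 12 lower, with 32.8% and 23.7% of all genes. Against macrophage-like cells 13 were higher and 7 lower, with 39.4% and 27.3% of all genes. The median log2 difference of the 24 was -0.34, -0.27 and 1.00, against 0.11, 0.07 and 0.15 over all genes tested. With scaling by total counts only, the pathway counts were 6 higher and 8 lower, 7 and 11, and 17 and 3, and the share of all calls that were higher went from 61.0% to 79.7%, 58.0% to 74.4% and 59.1% to 83.0%. The classes were drawn from other genes of the same cells.

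Among adaptor and kinase pathway genes, 3 of 15 were higher and 6 lower than in pericyte-like cells (25.6% and 16.3% of all genes), 4 and 8 against endothelial-like (32.8% and 23.7%) and 6 and 6 against macrophage-like cells (39.4% and 27.3%), so the counts of higher genes lay near the background. Irs4, an insulin receptor substrate gene, was higher than in all 3 classes, by log2 4.11 ± 0.44 (SE, edgeR adjusted p = 6.4e-07) against pericyte-like, 4.65 ± 0.37 (6.0e-09) against endothelial-like and 3.76 ± 0.33 (1.5e-08) against macrophage-like cells, and was higher in each of the 5 tumours. Its SyS-like level was 26.2 ± 17.5 CPM (SD, n = 5), and it stood at means of 1.05 to 1.18 in the others. Irs1, of the same family, was higher against endothelial-like (3.96 ± 0.30) and macrophage-like cells (4.28 ± 0.30) and at 0.07 ± 0.25 against pericyte-like cells. Irs2 was higher against pericyte-like (1.32 ± 0.21) and endothelial-like cells (3.57 ± 0.23). Grb10, an imprinted adaptor gene that restrains receptor signalling, was lower than in pericyte-like (-1.73 ± 0.25) and endothelial-like cells (-3.92 ± 0.25) and higher than in macrophage-like cells (3.51 ± 0.34). Gab1, a docking protein gene, was lower against all 3, at -2.95 ± 0.30, -2.81 ± 0.29 and -2.13 ± 0.29. Grb2, an adaptor gene that links receptors to Ras, was lower than in macrophage-like cells (-2.83 ± 0.14).

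Of 4 further binding protein genes, 1 was lower than in pericyte-like cells (16.3% of all genes), 2 lower than in endothelial-like cells (23.7%), and 3 higher and 1 lower than in macrophage-like cells (39.4% and 27.3%), and counts over 4 genes are too few to set apart from these shares. Igfbp7, a binding protein-related gene abundant in vessels, was lower, at log2 -6.01 ± 0.65 (edgeR adjusted p = 6.8e-07) against pericyte-like and -6.49 ± 0.66 (1.3e-07) against endothelial-like cells, with a SyS-like level of 78.6 ± 89.0 CPM (SD, n = 5), 2778 ± 567 in pericyte-like and 4119 ± 489 in endothelial-like cells. Igfbp3 was lower than in endothelial-like cells (-5.64 ± 0.51). Stc1, a stanniocalcin gene whose product inhibits binding protein proteases, was lower than in pericyte-like (-3.77 ± 0.44) and endothelial-like cells (-4.65 ± 0.43) and higher than in macrophage-like cells (2.96 ± 0.63). Htra1, a secreted protease gene, was lower than in pericyte-like (-1.96 ± 0.49) and higher than in macrophage-like cells (3.05 ± 0.57), and Stc2 was higher than in macrophage-like cells (4.71 ± 1.00). The Igf2 mRNA binding protein genes Igf2bp2 and Igf2bp3 were both higher than in endothelial-like cells (1.207 ± 0.43 and 1.203 ± 0.33), and the Igf2bp2 call was lost without BP replicate 1, BP replicate 2 or MP+BP (adjusted p = 0.066, 0.067 and 0.086). Igfbp7 and Igfbp6 were called against macrophage-like cells only by a small margin, with Igfbp7 lost without BP replicate 1, BP replicate 2 or MP+BP (adjusted p = 0.087, 0.063 and 0.11) and Igfbp6 lost without MP+BP (0.086), at Leiden resolution 2 (0.30), with total counts only (0.19) and with only the 2 classes compared (0.081). Pik3ca was lower than in endothelial-like cells with all tumours but not without BP replicate 2, MP or MP+BP (0.064, 0.077 and 0.092).

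**Figure D5:**
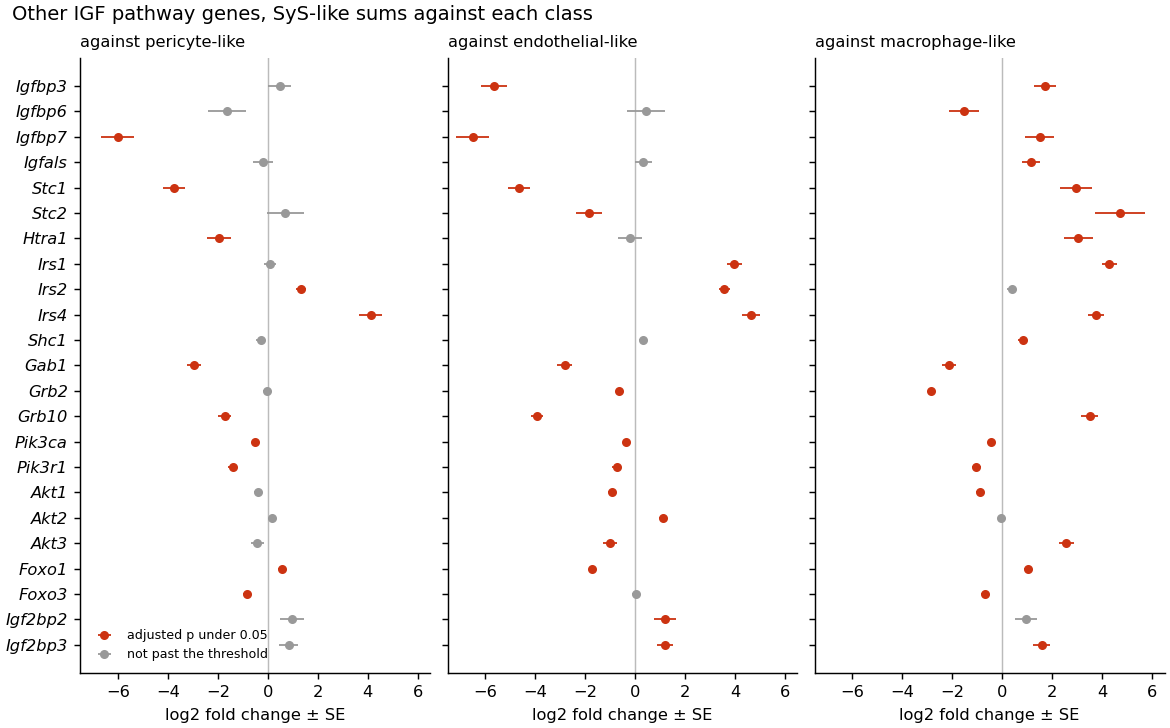
Log2 fold change of SyS-like against pericyte-, endothelial- and macrophage-like sums for tested pathway genes, with standard errors. Points are coloured by whether edgeR's adjusted p was under 0.05. Irs4 is at 4.11, 4.65 and 3.76, and Igfbp7 at -6.01 and -6.49 against the first pair of classes.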

How the data were processed

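Single-cell RNA of 5 tumours was counted by the authors with Cell Ranger 7.2.0 against mm10, per the file headers and labels, and the filtered matrices deposited hold unnormalized UMI counts, whole numbers for every gene in every cell, not corrected for free RNA. Cells with at least 750 genes and at most 25% mitochondrial UMIs were kept, and the highest Scrublet scores (0.8% per 1000 cells) were removed, since the automatic threshold marked no cell in MP+BP and PD+MP. Clusters (scanpy 1.11.5, Leiden resolution 1) were named from fixed markers. A cluster with more markers of another class than of its own among its 10 leading genes stayed unnamed. So did a cluster with a low UMI count and no marker of its own class among those genes, and a cluster with under 3 markers or a tie. The 10 genes and all lists were chosen with earlier results of these data known, and they were kept out of the clustering features. Counts were summed per tumour and class (at least 20 cells) and tested with edgeR 4.0.16 (TMM, filterByExpr, tumour as a block); DESeq2 1.42.0 and other settings were alternatives. Named genes were the 10, pathway genes called (at most 8 with values per comparison), the 5 genes most like Igf2 and H19, and imprinted genes highest where Igf2 was. A check of the test on simulated counts is not shown here and lends the calls no support. The 2 BP libraries, whose labels share a leading number, differed beyond counting noise (median chi-square 5.18 per gene over 20085 genes, 0.455 for noise); whether tumours shared an animal was not given, so p-values measure the spread between these samples. The values of 1 pathway gene are not reported here, though the counts include it.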

Additional observations from a re-analysis of the deposited data

How the results depend on the processing

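Counts of genes called in either direction stayed within 1.5 times in every alternative run, for all genes and for the pathway list, but counts in 1 direction moved further with scaling by total counts only. Over all genes, higher calls against pericyte-like cells went from 3349 to 5507 and lower calls from 2138 to 1405, and against macrophage-like cells from 5162 to 8324 and from 3570 to 1710. Pathway genes went from 3 to 6 higher against pericyte-like and from 7 to 3 lower against macrophage-like cells. Leaving out 1 tumour at a time gave 4205 to 5412 calls over all genes against pericyte-like, 6105 to 7380 against endothelial-like and 7524 to 8497 against macrophage-like cells, and 12 to 14, 16 to 18 and 17 to 21 pathway calls. The mean SyS-like level over tumours was 266 CPM for Igf2 and 44.7 for H19, and ranged from 25.3 (without PD+MP) to 331 and from 0.237 (without PD+MP) to 55.8. The share of SyS-like cells of PD+MP with an Igf2 UMI moved from 83.1% to 90.7% when thinned to 5000 UMIs, 84.4% with at least 1500 genes per cell and 84.3% at Leiden resolution 2, and that with an H19 UMI from 24.2% to 30.03% at 5000 UMIs. Scaling by total counts only raised the share of calls that were higher in SyS-like cells from 61.0% to 79.7% against pericyte-like, 58.0% to 74.4% against endothelial-like and 59.1% to 83.0% against macrophage-like cells, with the median log2 difference moving from 0.11 to 0.39, 0.07 to 0.37 and 0.15 to 0.78. Under that scaling Pik3ca turned to 0.21 against macrophage-like cells (edgeR adjusted p = 0.089), and the calls of Akt1, Foxo3 and Igfbp6 against macrophage-like cells (0.15, 0.79 and 0.19) and of Pik3ca against pericyte-like (0.097) and endothelial-like cells (0.74) were lost; the scaling itself shifts all genes. With only the 2 classes compared, Pik3ca was lost against pericyte-like (0.071) and endothelial-like cells (0.20) and Igfbp6 against macrophage-like cells (0.081), with no filter on low counts Pik3ca against endothelial-like cells (0.093), and at Leiden resolution 2 Igfbp6 (0.30). With doublets kept, the calls of Igfbp7 and Igfals against macrophage-like cells were lost (adjusted p = 0.56 and 0.27), and the cause was not tested. Of pathway gene results, 722 were the same, 22 lost their call and 1 reversed. No paired analysis was possible because the labels give no replicate numbers shared between histologies; the tumour was already a block in the comparison of classes. Differences between histologies were not tested, since only BP had more than 1 tumour, and rare classes (38 pericyte-like and 81 endothelial-like cells in PD+MP) limit its low values.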

Other observations

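Neutrophil-like cells, which entered no test because too few tumours held enough of them, had Igf1r at 655, 246 and 213 CPM in BP replicate 1, BP replicate 2 and MP, with a UMI in 75 of 116, 16 of 22 and 14 of 25 cells. Their median depths were 1854.5, 2554.5 and 1947 UMIs per cell, and SyS-like cells of the same tumours had 97.5, 55.9 and 75.8 CPM.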
